A study of Mus musculus with 4 samples.

Results

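The genes described here carry out calcium handling in skeletal muscle: Cacna1s, Cacnb1, Ryr1, Jph2, Casq1, Casq2, Atp2a1, Atp2a2, Stim1 and Orai1. Their members in the data are the ATAC-seq peaks from 50 kb upstream of the start to 50 kb past the end of each gene, in mm9 coordinates with the GENCODE M1 annotation. These windows held 59 of the 25775 peaks of the WT list and 12 of the 3836 peaks of the Tet2 KO list. The genes themselves are 10 of 22350 protein-coding genes of the autosomes and X.

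In ATAC-seq the transposase Tn5 cuts DNA where chromatin is open, and a peak is a place where more fragments were sequenced than in the surrounding DNA of the same library. The cells were primary myoblasts of C57BL/6 mice, WT or Tet2 KO, grown from satellite cells of hindlimb muscle that had been sorted for CD34 and integrin α7 and against CD45, CD11b, CD31 and Sca1. They were cultured for 3 days, and each library was made from 5000 cells. The Tet2 KO allele lacks exon 3 in the whole animal, and the study's methods give male mice of 8 to 10 weeks as the default. Labels exist for 2 WT and 2 Tet2 KO samples, but the values come from 1 peak list of each genotype, so the genotypes were not tested against each other, and the 95% Wilson intervals given with shares hold counting error alone.

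The Tet2 KO list was the shorter list but came from the library with the higher genome-wide background, 1.38 fragments against 0.649 in WT, and the smallest summits listed held 7 fragments in Tet2 KO and 6 in WT. The fragments at a summit were recovered from the deposited fold enrichment and −log10 p. Peak numbers skip 4403 values in the Tet2 KO list and 9707 in the WT list, and the lists were not cut at the same limit: the smallest −log10 q was 2.18 in WT and 0.863 in Tet2 KO. A missing peak is therefore a peak not listed, which is not the same as closed chromatin. At Tet2, the deleted gene, the WT list had 3 peaks from 10 kb upstream to the gene end and the Tet2 KO list had 0, and neither list had a peak in an exon there, so the deletion of exon 3 could not be checked with these lists. From 10 kb upstream to the gene end, 49.5% of protein-coding genes had a WT peak and 13.5% a Tet2 KO peak. Of 6 myoblast genes, 5 had a WT peak there, 3 had a Tet2 KO peak, and Myf5 had neither. Of 6 genes of the cells that the sort removes, 5 had a WT peak there, among them Pecam1 with 3 peaks and Cdh5 with 2, none had a Tet2 KO peak, and Ly6a had neither. In windows with flanks of 50 kb the myoblast genes held 41 WT peaks, with a median of 5.50 per 100 kb, and the genes of the removed cells 16, with a median of 1.61. The same windows held 12 and 3 Tet2 KO peaks.

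In skeletal muscle an action potential is read by the voltage sensor in the transverse tubule, which is mechanically coupled to the calcium release channel of the sarcoplasmic reticulum. Calcium pumps of the SERCA family return calcium to the reticulum, where calsequestrin binds it. When the store empties, a sensor in its membrane opens a channel in the plasma membrane. Most of these proteins become abundant during differentiation into myotubes, whereas proliferating myoblasts already use the store-operated channel.

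The peaks inside or at the start of these genes are where the lists bear on the genes most directly, and 8 of their summits are shown, with 100 bp on either side, because the results below turn on them. Each is the plus strand of mm9 (NCBIM37), and capitals mark CAGCTG, the E box bound by myogenic factors such as MyoD, and TGANTCA, the AP-1 site.
Ryr1, intron, chr7:29908806-29909006: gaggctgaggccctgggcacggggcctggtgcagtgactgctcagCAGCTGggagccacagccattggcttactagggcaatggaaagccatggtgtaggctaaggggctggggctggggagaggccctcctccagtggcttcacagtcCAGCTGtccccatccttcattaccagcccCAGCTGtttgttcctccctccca
Cacnb1, intron, chr11:97882571-97882771: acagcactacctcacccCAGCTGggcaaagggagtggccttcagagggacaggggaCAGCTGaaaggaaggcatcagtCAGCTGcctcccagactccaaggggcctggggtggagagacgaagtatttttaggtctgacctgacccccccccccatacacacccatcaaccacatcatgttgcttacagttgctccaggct
Jph2, promoter, chr2:163223678-163223878: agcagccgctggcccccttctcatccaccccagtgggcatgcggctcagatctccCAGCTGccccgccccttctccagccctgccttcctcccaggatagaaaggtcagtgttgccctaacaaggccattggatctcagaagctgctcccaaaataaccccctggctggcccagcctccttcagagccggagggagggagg
Jph2, intron, chr2:163212613-163212813: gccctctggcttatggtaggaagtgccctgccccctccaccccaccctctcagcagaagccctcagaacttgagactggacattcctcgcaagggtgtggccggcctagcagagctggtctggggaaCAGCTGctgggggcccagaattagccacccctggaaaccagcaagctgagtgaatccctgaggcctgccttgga
Cacna1s, intron, chr1:137963284-137963484: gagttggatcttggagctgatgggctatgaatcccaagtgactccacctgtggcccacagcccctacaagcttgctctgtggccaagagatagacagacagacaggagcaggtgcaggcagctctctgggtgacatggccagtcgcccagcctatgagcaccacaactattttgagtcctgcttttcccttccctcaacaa
Casq2, intron, chr3:101916225-101916425: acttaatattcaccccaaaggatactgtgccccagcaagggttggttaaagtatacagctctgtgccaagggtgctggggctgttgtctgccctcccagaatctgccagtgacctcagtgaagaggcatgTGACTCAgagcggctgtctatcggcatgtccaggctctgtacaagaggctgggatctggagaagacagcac
Orai1, promoter, chr5:123464844-123465044: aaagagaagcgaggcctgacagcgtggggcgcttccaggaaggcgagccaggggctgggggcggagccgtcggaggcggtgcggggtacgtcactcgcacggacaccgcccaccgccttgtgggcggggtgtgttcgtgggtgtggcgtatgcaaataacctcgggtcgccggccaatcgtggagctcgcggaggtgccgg
Stim1, promoter, chr7:109415628-109415828: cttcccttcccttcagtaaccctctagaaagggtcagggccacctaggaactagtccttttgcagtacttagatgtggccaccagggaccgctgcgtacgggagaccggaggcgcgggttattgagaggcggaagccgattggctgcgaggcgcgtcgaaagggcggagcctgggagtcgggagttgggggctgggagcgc
The Ryr1 and Cacnb1 windows each hold 3 copies of CAGCTG, the Jph2 windows 1 each, and the Casq2 window an AP-1 site. The windows of Cacna1s, Orai1 and Stim1 hold neither motif.

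All 10 genes had a WT peak in the window, where 74.3% of protein-coding genes had. Of the 10, 7 had a Tet2 KO peak in the window, beside 31.4% of protein-coding genes, and Atp2a2, Casq2 and Stim1 had 0. With only peaks of a −log10 q of at least 5 kept in each list, Cacna1s, Cacnb1 and Orai1 also had 0. No share over all genes was computed at that limit. Per 100 kb of window the genes ranged from 0.743 WT peaks at Stim1 to 8.23 at Cacnb1, with a median of 3.69 beside 1.60 over all protein-coding genes. Cacnb1 and Atp2a1, with 7.68 peaks per 100 kb, stood at the 98.9 and 98.3 percentiles of protein-coding genes, and Stim1 stood at 31.3. When the window was narrowed to 10 kb upstream through the gene end, it kept 18 WT peaks at 9 genes and 4 Tet2 KO peaks at 3 genes. The share of protein-coding genes with a peak in that narrower stretch was 49.5% in WT and 13.5% in Tet2 KO. The stretch is longer for a longer gene, and gene length was not matched in this comparison.

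**Figure D1:**
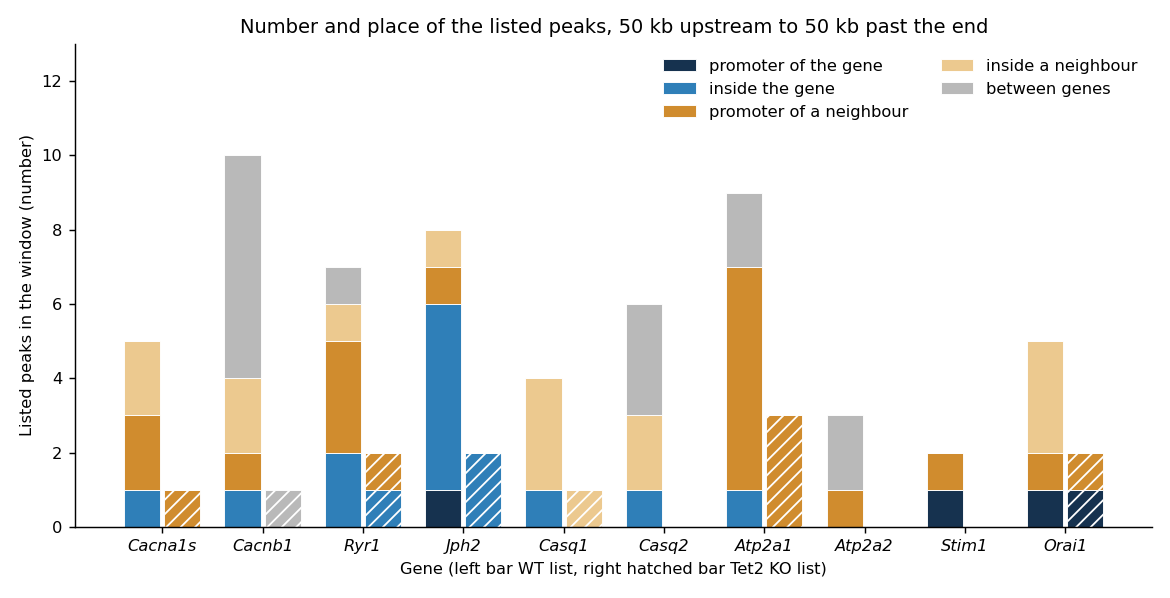
Number of listed peaks in the window of each gene (left bar WT, right hatched bar Tet2 KO), coloured by the place of the peak centre. The WT bars run from 2 peaks at Stim1 to 10 at Cacnb1, and the Tet2 KO bars from 0 at Casq2, Atp2a2 and Stim1 to 3 at Atp2a1, all of these last at promoters of neighbouring genes.

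Most of the peaks in the windows were not in the genes. Of the 59 WT peaks, 3 were at the promoter of the gene (from 1000 bp before to 100 bp after a transcription start), 12 were inside it, 16 were at promoters of neighbours, 14 were inside neighbours and 14 lay between genes. For 16 of the WT peaks and 4 of the Tet2 KO peaks the nearest protein-coding transcription start was that of the gene itself. The promoter share of the WT peaks, own and neighbouring promoters together, was 32.2% (21.7 to 44.9) beside 27.3% of all WT peaks. In the Tet2 KO list it was 7 of 12, or 58.3% (32.0 to 80.7), beside 43.4% of all Tet2 KO peaks.

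**Figure D2:**
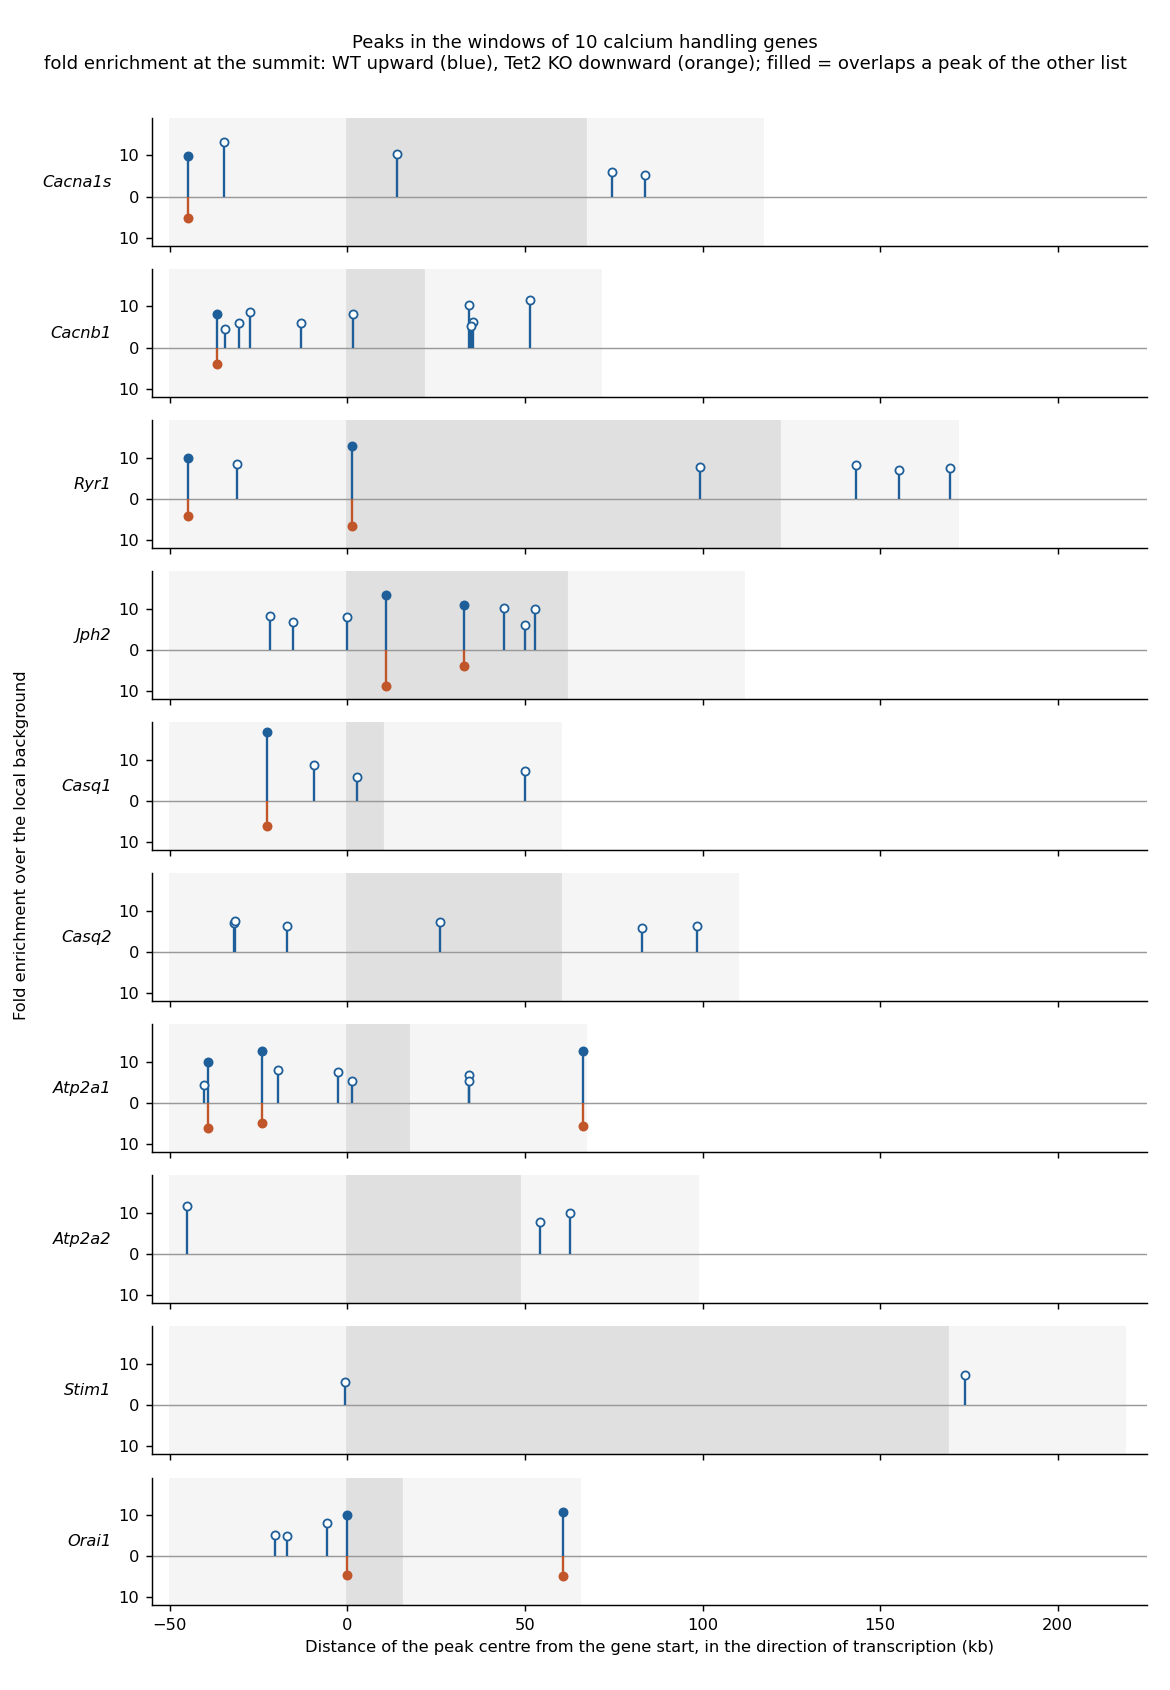
Position and fold enrichment of each peak along the 10 windows, with distance from the gene start in kb in the direction of transcription, the gene in dark grey and the flanks of 50 kb in light grey. WT peaks point up and Tet2 KO peaks down, and filled circles overlap a peak of the other list. Each downward peak has a filled upward peak above it, and the gene bodies of Atp2a2, Stim1 and Orai1 hold no peak centre of either list.

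The voltage sensor genes had 1 intronic WT peak each and no peak at their own promoter in either list. Cacna1s (chr1:137949327-138016399) encodes the pore-forming subunit, Cav1.1. Its window held 5 WT peaks and 1 Tet2 KO peak, and the WT peak inside the gene lay 14.0 kb past the start, in an intron, at a fold enrichment of 10.3 over the local background (20 fragments at the summit). No Tet2 KO peak overlapped it. Of the 4680 WT peaks within 10% of its fold, 23.7% had a Tet2 KO peak.

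The other peaks of the Cacna1s window lay at promoters of neighbours or inside neighbours, and which gene they act on was not tested. Tmem9 has a pair of annotated promoters there, and each held a WT peak. The promoter peak 34.8 kb upstream of Cacna1s had the higher fold, 13.1 with 22 fragments, and no Tet2 KO peak. The promoter peak 44.8 kb upstream had a fold of 9.80 with 24 fragments in WT and 5.12 with 12 fragments in Tet2 KO. So the WT peak of higher fold at this gene was the peak absent from the Tet2 KO list. Of WT peaks of like fold, 47.4% had a Tet2 KO peak, and 18.6% of those like the peak of lower fold had. The peak of lower fold had more fragments and was 398 bp wide, beside 142 bp, over a local background of 1.55 beside 0.75.

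Cacnb1 (chr11:97862822-97884348), which encodes the β subunit that carries Cav1.1 to the membrane, had the most WT peaks of the 10 genes, 10, and 1 Tet2 KO peak. Its intronic WT peak lay 1.66 kb past the start, in the first intron, with a fold of 8.28 and 25 fragments, and it holds the 3 copies of CAGCTG shown above. The Tet2 KO list had no peak there, and 8.55% of WT peaks of like fold had such a peak. The Tet2 KO peak of this window lay 36.7 kb upstream, between genes, where the fold was 8.27 in WT (20 fragments) and 3.85 in Tet2 KO (11 fragments). That WT value is the lowest fold among the WT member peaks that had a Tet2 KO peak. The strongest WT peak of the window, at a fold of 11.5, was 51.5 kb past the Cacnb1 start in an intron of Plxdc1 and had no Tet2 KO peak. Of WT peaks of like fold, 33.1% had a Tet2 KO peak.

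Ryr1 (chr7:29788359-29910170) encodes the release channel of the sarcoplasmic reticulum. Its window held 7 WT peaks and 2 Tet2 KO peaks, and a pair of WT peaks lay inside the gene. The peak in the first intron, 1.17 kb past the start, was among the strongest of the set, with a fold of 12.8 and 39 fragments in WT and 6.71 with 21 fragments in Tet2 KO. The summits of both lists lay 1 bp apart, and both windows hold 3 copies of CAGCTG. The WT peak was 564 bp wide and the Tet2 KO peak 282 bp. Some 45.3% of WT peaks of like fold had a Tet2 KO peak. The second intronic WT peak, 99.4 kb past the start, had a fold of 7.66 and no Tet2 KO peak. Of WT peaks like this second peak in fold, 6.27% had a Tet2 KO peak. At the promoter shared by Ggn and Spred3, 44.9 kb upstream of Ryr1, the fold was 9.76 in WT (28 fragments) and 4.17 in Tet2 KO (16 fragments).

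At least 3 copies of CAGCTG in a window of this length were found in 285 of the 25775 WT peaks, or 1.11%. In the member windows 3 of 59 WT peaks held them, 5.08% (1.74 to 13.9): the Ryr1 and Cacnb1 intronic peaks and a peak in an intron of Kif21b in the Cacna1s window, where the fold was 5.36. This count was chosen after its values were seen.

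Jph2 (chr2:163161978-163223729), which encodes a junctophilin that holds the reticulum and the plasma membrane together, had the most peaks of its own. Of 8 WT peaks in its window, 1 was at its promoter and 5 were inside the gene, and both Tet2 KO peaks were inside the gene too. The promoter peak, 75 bp upstream of the start at its centre, had a fold of 8.0 with 21 fragments and no Tet2 KO peak. Of WT peaks of like fold, 7.41% had a Tet2 KO peak. The intronic peak 10.97 kb past the start had a fold of 13.4 in WT (41 fragments) and 8.75 in Tet2 KO (25 fragments). This Tet2 KO value was the highest of the 12 and stood at the 95.8 percentile of the Tet2 KO list. The intronic peak 32.9 kb past the start had a fold of 10.8 in WT (32 fragments) and 4.02 in Tet2 KO (11 fragments).

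The 3 remaining WT peaks inside Jph2 had no Tet2 KO peak. They lay 44.0, 50.1 and 52.8 kb past the start, with folds of 10.1, 6.11 and 9.87. The outer pair held 37 and 36 fragments, more than the 32 of the shared peak at 32.9 kb, and 21.0% and 19.4% of WT peaks of like fold had a Tet2 KO peak. For the peak at 50.1 kb this share was 2.06%. Around the Jph2 start, the nearest listed Tet2 KO peaks on either side left a stretch of 288 kb, in which the Tet2 KO list skips 4 numbers. That stretch takes in the promoter peak but none of these 3 intronic peaks.

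Of the calsequestrin genes, which encode the main calcium-binding protein of the store, Casq1 had a Tet2 KO peak in its window and Casq2 had none. Casq1 (chr1:174140025-174150026), the form of fast fibres, had 4 WT peaks and 1 Tet2 KO peak in its window. The strongest of all 59 WT member peaks was in this window, 22.7 kb upstream of Casq1 in an intron of Atp1a4 (chr1:174172512-174172876), with a fold of 16.7 and 41 fragments, at the 99.6 percentile of the WT list. In Tet2 KO the same place had a fold of 6.00 with 16 fragments. The Tet2 KO to WT ratio of folds there, 0.359, was the lowest of the 12 pairs. The ratio of summit fragments was lower at a Jph2 pair. The summits lay 10 bp apart. This window holds no CAGCTG. It is the only member window with a MEF2 motif, found in 2.45% of all WT peaks, and it also holds TEAD and RUNX motifs. Nearer to Casq1, a WT peak 9.50 kb upstream, again within Atp1a4, had a fold of 8.77, and a peak in a Casq1 intron had a fold of 5.82. Neither had a Tet2 KO peak, which 11.5% and 1.76% of WT peaks of like fold had.

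Casq2 (chr3:101890338-101950437), the form of heart and slow fibres, had 6 WT peaks, all of them of modest fold, from 5.68 to 7.44, and 0 Tet2 KO peaks. Among WT peaks of like fold to each of the 6, only 1.61% to 5.73% had a Tet2 KO peak. Of these 6 peaks, 5 hold an AP-1 motif, beside 34.2% of all WT peaks and 44.1% of those outside promoters, a count chosen after its values were seen. The peak inside the gene lay 26.0 kb past the start with a fold of 7.14 and 11 fragments. The nearest listed Tet2 KO peak was 588706 bp from the Casq2 start. The interval without a listed Tet2 KO peak ran over 2416 kb and held 38 WT peaks, and the Tet2 KO list skips 10 numbers in it. Such intervals were measured at the 10 genes alone.

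Neither pump gene had a Tet2 KO peak from 10 kb upstream to its end. Atp2a1 (chr7:133589372-133606622) encodes SERCA1, the pump of fast fibres. Its window held 9 WT peaks and 3 Tet2 KO peaks, but all 3 Tet2 KO peaks were at promoters of neighbours. At Tufm, a mitochondrial translation factor gene, the fold was 12.6 in WT (30 fragments) and 4.80 in Tet2 KO (12 fragments). At Nfatc2ip it was 12.4 in WT (30 fragments) and 5.64 in Tet2 KO (13 fragments). At Atxn2l it was 10 in WT (29 fragments) and 6.14 in Tet2 KO (19 fragments), with both summits on the same base. The peaks nearest to Atp2a1 were weaker and in WT only: 2.70 kb upstream with a fold of 7.49, 28 fragments and 1 CAGCTG, and 1298 bp past the start, in the third intron, with a fold of 5.25 and 20 fragments. Of WT peaks of like fold, 5.76% and 1.23% had a Tet2 KO peak.

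Atp2a2 (chr5:122903531-122952183) encodes SERCA2, which also serves cells other than muscle. It was the only 1 of the 10 genes with no peak of either list from 10 kb upstream to its end. Its window held 3 WT peaks and 0 Tet2 KO peaks, of which the strongest lay 45.3 kb upstream, between genes, with a fold of 11.6 and 21 fragments. Of WT peaks of like fold, 34.9% had a Tet2 KO peak. The WT interval around the start was 99126 bp long, and the list skips 2 numbers in it.

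In store-operated entry, Stim1 (chr7:109416338-109585362) encodes the sensor of the store and Orai1 (chr5:123465083-123480459) the channel in the plasma membrane. Stim1 had a WT peak at its promoter, 618 bp upstream of the start, with a fold of 5.47 and 10 fragments, at the 9.64 percentile of the WT list. The Tet2 KO list had no peak there, and 1.45% of WT peaks of like fold had such a peak. The Stim1 gene of 169 kb held no peak of either list. Orai1 was the only 1 of the 10 genes with a promoter peak in both lists. The fold there was 9.80 in WT (24 fragments) and 4.69 in Tet2 KO (13 fragments), with the summits 88 bp apart. This Tet2 KO peak was not kept at a fold of at least 5, nor at a −log10 q of at least 5. A further shared peak of the Orai1 window was at a promoter of Tmem120b, with a fold of 10.6 in WT (27 fragments) and 4.96 in Tet2 KO (13 fragments). The 3 WT peaks upstream of Orai1, with folds of 4.74 to 7.98, lay within Kdm2b and had no Tet2 KO peak. Among WT peaks of like fold to each of the 3, 1.25% to 7.33% had a Tet2 KO peak.

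Of the 10 promoters, 3 thus had a WT peak, those of Jph2, Stim1 and Orai1, beside 30.3% of protein-coding genes, and 1 had a Tet2 KO peak, beside 7.92%. The CpG content of the promoters, as the observed over expected CpG ratio from 250 bp upstream to 50 bp downstream of the start, was 1.04 at Atp2a2, 1.00 at Orai1 and 0.813 at Stim1. At the other 7 genes it lay between 0.148 at Casq1 and 0.414 at Casq2. Over all protein-coding genes, promoters with a ratio of at least 0.6 had a WT peak in 49.7% of cases and a Tet2 KO peak in 13.9%, and the others in 14.2% and 2.98%. The Jph2 promoter, with a ratio of 0.237, had a WT peak, and the Atp2a2 promoter had none.

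The peaks found in both lists were counted next. Of the 59 WT peaks, 12 had a Tet2 KO peak that overlapped by at least 1 bp, or 20.3% (12.0 to 32.3), beside 14.1% of all WT peaks. At promoters it was 7 of 19, or 36.8% (19.1 to 59.0), beside 22.5%, and outside promoters 5 of 40, or 12.5% (5.46 to 26.1), beside 10.9%. These intervals include the values of the whole list. With only peaks of a fold of at least 5 kept in each list, 6 of 56 WT member peaks had a Tet2 KO peak, 10.7% beside 10.6% of the whole list. All 12 Tet2 KO peaks had a WT peak, beside 96.8% of all Tet2 KO peaks. By place, 6 of the 16 WT peaks at promoters of neighbours had a Tet2 KO peak, 3 of the 12 inside the genes, 1 of the 3 at own promoters, 1 of the 14 inside neighbours and 1 of the 14 between genes.

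The shared peaks were the strong WT peaks. When all WT peaks were divided into 5 equal groups by fold, the member windows had 15, 9, 14, 11 and 10 peaks from the weakest to the strongest group, of which 0, 0, 1, 4 and 7 had a Tet2 KO peak. Over the whole list 1.75%, 3.34%, 7.33%, 16.1% and 41.9% of these groups had one. The 12 shared WT peaks had 20 to 41 fragments with a median of 29.5, and the 47 others had 9 to 37 with a median of 15. The shared peaks had a median width of 371 bp and the others 178 bp.

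In all 12 pairs the fold was lower in Tet2 KO, as it was in 98.1% of the 3722 overlapping pairs of the lists. The ratio of the Tet2 KO fold to the WT fold ran from 0.359 in Atp1a4 upstream of Casq1 to 0.654 in the Jph2 intron, with a median of 0.465 beside 0.529 over all pairs. When the summit fragments were divided by the genome-wide background of their library, the median ratio was 0.243 in the member pairs, with a range of 0.161 to 0.307, beside 0.259 over all pairs. Of these scaled ratios, the lowest was at the Jph2 peak 32.9 kb past the start and the highest at the Atxn2l promoter. All 12 Tet2 KO peaks were narrower than their WT peaks, which also held for 3512 of the 3722 pairs. The summits lay 0 to 95 bp apart, with a median of 36.5 bp beside 38 bp over all pairs.

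**Figure D3:**
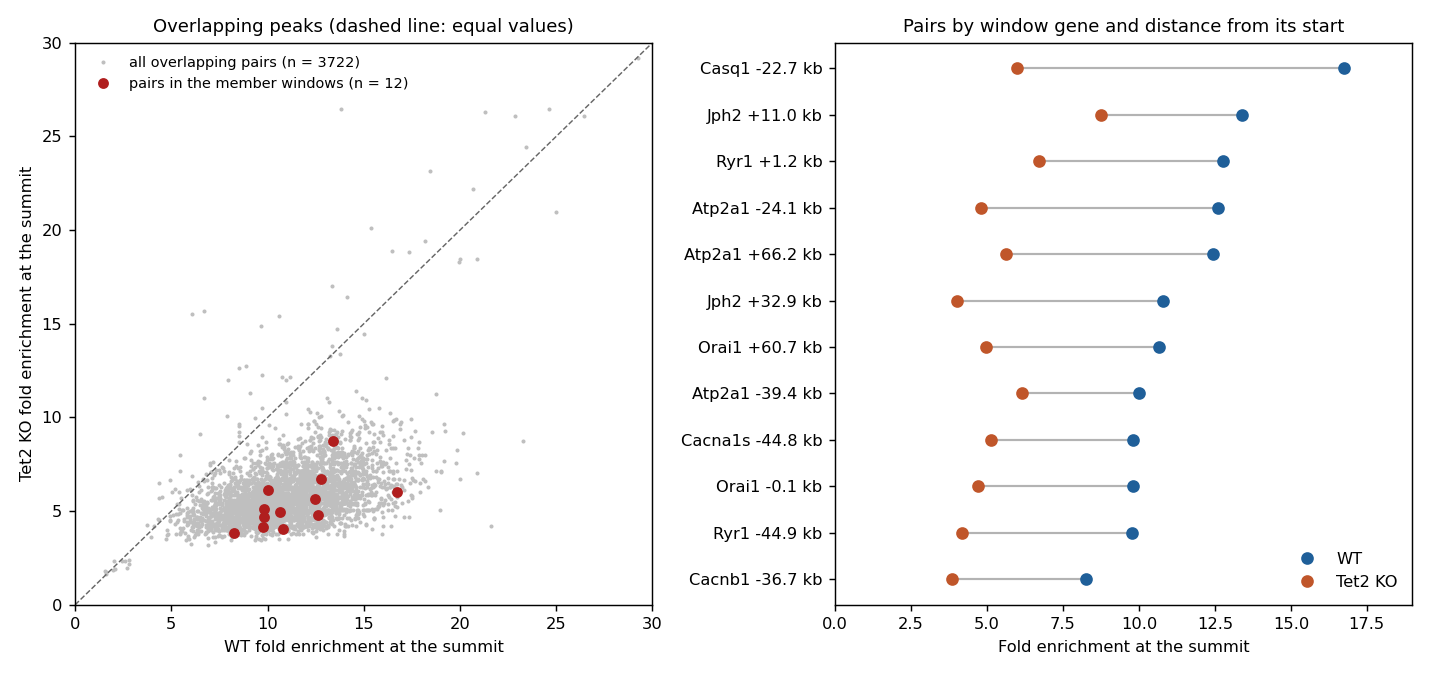
Fold enrichment at the summit of overlapping peaks. Left, all 3722 pairs in grey and the 12 pairs of the member windows in red, with a dashed line of equal values. All 12 red points lie below that line, as do 98.1% of all pairs. Right, the 12 pairs by window gene and distance from its start, with WT in blue and Tet2 KO in orange: the WT values run from 8.27 to 16.7 and the Tet2 KO values from 3.85 to 8.75.

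Sequence motifs were searched on both strands up to 100 bp on either side of each WT summit. CAGCTG was present in 17 of 59 windows, 28.8% (18.8 to 41.4), beside 33.3% of all WT peaks. Outside promoters it was present in 30% (18.1 to 45.4) beside 40.1%, and in 5 of the 12 peaks inside the genes. The related E box CAGGTG, no match of which is also a match of CAGCTG, was present in 10 of 59 windows. That is 16.9% (9.48 to 28.5) beside 10.6% of all WT peaks, a value inside the interval. It was present in 22.5% (12.3 to 37.5) of the 40 peaks outside promoters beside 11.4%, and in 5.26% of the promoter peaks beside 8.37%. CAGGTG was the only motif whose interval outside promoters left out the value of all WT peaks, among 11 motifs searched.

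The AP-1 site TGANTCA was present in 40.0% of the 40 peaks outside promoters beside 44.1% of all WT peaks there. Within the genes it was found in 2 of 12, at Casq2 and at Jph2. TGTGGT, the RUNX motif, was present in 32.5% beside 30.7%, and GGAATG, the TEAD motif, in 25.0% beside 20.3%. TTGGCA, the NFI motif, was present in 7.50% beside 14.9%. GGGCGG, the SP/KLF motif, was found in 13 of the 19 promoter peaks, 68.4%, beside 59.1% of all WT promoter peaks, and in 12.5% outside promoters beside 8.55%. CCGGAAG, the ETS motif, was present in 5.0% outside promoters beside 1.86%, and CGCATGCG, the NRF1 core, in 0 of 59 peaks beside 0.586%. The MEF2 motif and the CArG box, present in 2.45% and 1.27% of all WT peaks, were each found in 1 peak, the first upstream of Casq1 and the second in the Jph2 intron 50.1 kb past the start.

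**Figure D4:**
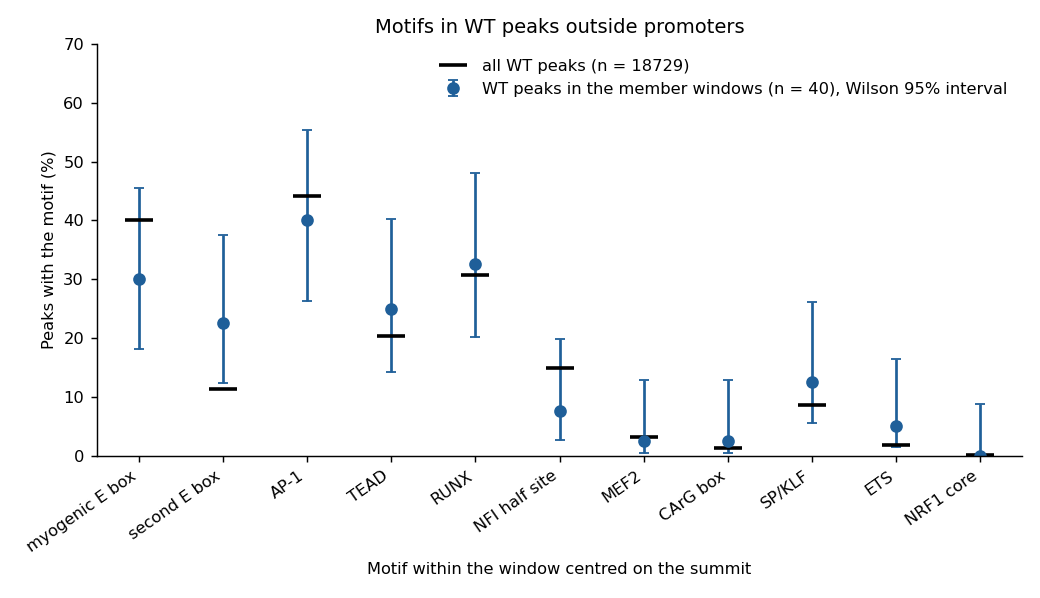
Share of WT peaks outside promoters with each motif within 100 bp of the summit. Points are the 40 peaks of the member windows with their 95% Wilson intervals, black bars are all 18729 WT peaks outside promoters, and "second E box" stands for CAGGTG: 22.5% of the member peaks held it, beside 11.4%.

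The distance from these E boxes to the nearest CpG, the site of DNA methylation, was measured as well. Of 23 CAGCTG sites in the member windows, 6 had a CpG within 10 bp, 26.1% (12.5 to 46.5), beside 33.2% of the 10864 sites in all WT peaks. The median distance to the nearest CpG was 24 bp in the member windows and 19 bp over all sites.

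A longer list of 36 other calcium handling genes was counted in the same windows. They held 159 WT peaks and 20 Tet2 KO peaks. A WT peak was in the window of 35 of the 36 genes, beside 74.3% of protein-coding genes. A Tet2 KO peak was in the window of 12 of the 36, beside 31.4%. Of the 159 and 20 peaks, 69 and 11 lay from 10 kb upstream to the gene end, at 26 and 9 genes of 36. The shares of protein-coding genes with such peaks were 49.5% and 13.5%, again without matching for gene length. The median density of the 36 genes was 2.43 WT peaks per 100 kb of window, beside 1.60 over all protein-coding genes. The WT list had a promoter peak at 15 of the 36 genes, beside 30.3% of protein-coding genes, and the Tet2 KO list at 6, beside 7.92%.

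Several of these genes had peaks of both lists from 10 kb upstream to the end. Itpr2 had 9 WT peaks and 1 Tet2 KO peak, and Itpr1 had 8 and 2, both of them inositol trisphosphate receptors that release calcium from the endoplasmic reticulum. Asph, whose gene also encodes junctin, had 3 WT peaks and 1 Tet2 KO peak. Cacng1, the γ subunit of the voltage sensor, had 2 and 1, as did Jsrp1, a junctional protein of the reticulum, and Tmem38a, a cation channel of the reticulum. Calr, the calcium-binding chaperone calreticulin, and Pvalb, the cytosolic calcium buffer parvalbumin, had 1 peak in each list. Trpc1 had 0 peaks of either list in its whole window.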

How the data were processed

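ATAC-seq was performed on WT and Tet2 KO primary myoblasts. The authors cut the paired 150 bp reads down to 36 bp, mapped them on mm9 by Bowtie2, discarded duplicates and alignments below a mapping quality of 30, and ran MACS2 on every sample, with 0.01 stated as the q limit. Each list was given its genotype from its peak total, which equals that of the study, and from its name. Neither could be tied to a replicate.

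The authors deposited for each peak a MACS2 score (10 times −log10 q in WT, 10 times −log10 p in Tet2 KO), a fold ratio of the summit over the local background with a pseudocount of 1, and −log10 p and −log10 q at the summit. Fragments at the summit were solved from the fold and the Poisson −log10 p to within 0.001, for 100% of peaks. Total read numbers are unknown. The deposited lists were not cut alike: the WT list has a smallest −log10 q of 2.18, whereas 55 Tet2 KO peaks have a −log10 q under 2 and the smallest Tet2 KO −log10 p is 4.01. The 12 Tet2 KO peaks counted here have a −log10 q of at least 2.16.

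Peaks counted where they shared at least 1 bp with a window. The peak centre set the feature of each peak by GENCODE M1, in the order promoter, exon, intron and intergenic, on NCBIM37, which is mm9. A WT peak of like fold has a fold within 10% of the peak named. Genes and lists were chosen with earlier results of these data known. By rule, the text names peaks at member promoters, peaks in both lists, all Tet2 KO peaks and the strongest WT peak near each gene; other WT peaks were named after their values were seen. The calculations were tested on simulated data. Alternatives were other windows, thresholds, overlap rules and promoter definitions. Software was scipy 1.17.1, pandas 2.3.3 and numpy 2.4.6 in Python 3.11.15, with matplotlib 3.10.9 for plots. The values of 1 gene that the rule would name are not reported here. Signal tracks, mRNA-seq and methylation-seq are not used here.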

Additional observations from a re-analysis of the deposited data

How the results depend on the processing

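Of 47 values recomputed for the 5 main results, 28 stayed close to the value reported, that is, counts within 1.5 times and shares within the 95% interval. The 59 WT and 12 Tet2 KO peaks became 18 and 4 from 10 kb upstream to the gene end, 13 and 3 in the gene body alone, and 16 and 4 where the nearest transcription start had to be that of the gene. The promoter share of the WT peaks, 32.2%, was 16.7%, 7.69% and 18.8% under these 3 settings, and 50.8% with promoters of 3000 bp on either side. The CAGCTG share, 28.8%, was 46.2% in the gene body alone and 16.9% within 50 bp of the summit. Limits applied to WT and Tet2 KO alike left 5 Tet2 KO peaks at −log10 q ≥ 5, 6 at a fold ≥ 5, and 34 WT peaks and 1 Tet2 KO peak at −log10 q ≥ 10. The share of WT peaks with a Tet2 KO peak was then 9.26%, 10.7% and 2.94%, in place of 20.3%, beside 9.03%, 10.6% and 3.41% of all WT peaks at the same limits, in place of 14.1%. Of 120 counts for single genes under other windows or thresholds, 60 moved by over 1.5 times, 54 of them down and 6 up. These directions were set in advance, because narrower windows and stricter limits only remove peaks and the wider window only adds them. In 0 cases did a gene have more Tet2 KO than WT peaks, but with 12 Tet2 KO beside 59 WT peaks few such cases could arise. No paired analysis was possible because there is 1 peak list of each genotype and neither carries a replicate number. Leaving out a replicate was not possible for the same reason.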
